A study of Sus scrofa with 61 samples.

Results

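TP53INP2 and PIK3C3 are 2 genes of autophagy, and their mRNA was followed in pig liver from late gestation to young adult age. The members were all probe-sets that the platform annotation maps to these 2 symbols. They were selected on measured values, because earlier results of these data had shown their stage patterns. Their differences between stages are therefore given as a description, with no test. Each symbol had 1 probe-set, Ssc.16937.1.A1_at for TP53INP2 and Ssc.13366.1.A1_at for PIK3C3, so that 2 of the 6765 genes with a symbol of their own on the array are described. The TP53INP2 probe-set was annotated through an expressed sequence tag and the PIK3C3 probe-set through a reference mRNA.

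Autophagy encloses cytoplasm in a double membrane, the autophagosome, and delivers it to the lysosome, where proteins, lipids and organelles are broken down. PIK3C3, also called VPS34, is the catalytic subunit of the class III phosphoinositide 3-kinase. It works in complexes with BECN1 and other subunits and makes the lipid phosphatidylinositol 3-phosphate, which marks the membrane where autophagosomes form and also early endosomes. TP53INP2, also called DOR, is a nuclear protein that leaves the nucleus when autophagy is induced, binds the ATG8 proteins (LC3 and GABARAP families) on the autophagosome, and also serves as a coactivator of thyroid hormone receptors. In mice, autophagy is known to be induced in tissues of the newborn, when the supply through the placenta ends, and in the fasted liver.

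All 61 animals were German Landrace offspring of gilts fed a low protein (LP) diet during gestation, and 1 liver RNA of each was hybridised to 1 Affymetrix porcine array. There were 16 fetuses at 94 days post conception (dpc), 14 newborns at 1 day post natum (dpn), 15 piglets at weaning (28 dpn) and 16 young adults at 188 dpn. Offspring of dams fed an adequate protein diet were not analysed here, so nothing below is an effect of the diet. The fetuses came from a separate experiment with Caesarean section, so that stage and experiment cannot be told apart between 94 dpc and 1 dpn. The animals at 28 dpn and 188 dpn were fasted overnight and no fast is described for the newborns, so that age and feeding state cannot be told apart between 1 dpn and 28 dpn. The first period set 1 dpn against 94 dpc, the second 28 dpn against 1 dpn and the third 188 dpn against 28 dpn, and every difference is the later minus the earlier stage in mean log2 intensity. The animals included pairs of light and heavy littermates, but litter, sex and weight were not in the labels and did not enter any fit. p-values therefore treat littermates as separate samples.

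Intensities were globally scaled by the authors. After this scaling the median probe-set of an array was still lower at each later stage, with stage medians of 167, 150.4, 118 and 102 in age order. Beta-actin, whose 3' probe-set reads brighter than its 5' probe-set where RNA is degraded, had a 3' minus 5' log2 difference with stage means of 2.27, 1.78, 3.94 and 4.03 in age order. In 9 of the 61 arrays such a difference for beta-actin, GAPDH or EF1A lay far from the stage median (2, 1, 2 and 4 arrays in age order). Results were therefore also computed without these 9 outlying arrays and under 2 other scalings, quantile normalization and subtraction of each array's median. Leaving out arrays far from their own stage median does not remove a difference between whole stages. Age and the beta-actin 3' to 5' difference therefore cannot be told apart between 1 dpn and 28 dpn. All 8 hepatocyte markers stood above the array median at every stage. Of the 7 tested, 4 were called higher and 1 lower at 1 dpn (median difference 0.25), and at 28 dpn 6 of 7 were called lower (median -0.55). Over all probe-sets tested 26.1% were called higher and 41.6% lower at 1 dpn, and 41.4% lower at 28 dpn. The mean log2 intensity of the 6 measured of 13 erythroid markers lay between 8.25 and 11.29 in fetuses, 6.57 and 8.85 in newborns, 7.22 and 8.40 in weaned piglets, and 7.48 and 8.30 in young adults. That of the 6 measured of 9 macrophage markers lay between 10.25 and 11.10 in young adults against 11.63 and 12.27 in weaned piglets. All 6 were called lower at 188 dpn, where 35.7% of all probe-sets tested were. The part of these cell types in the differences of the 2 genes was not tested. In a whole tissue, fewer cells of a type and less RNA per cell cannot be told apart. The number of arrays limits the precision of every value.

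TP53INP2 mRNA was weak in fetal liver, high in the newborn, intermediate at weaning and spread widely in the young adult. At 94 dpc its intensity was 11.8 in the lowest fetus, 25.9 in the median and 198 in the highest, and 2 of 16 fetuses exceeded the median of their own array. At 1 dpn the lowest newborn had 610, the median 1714 and the highest 2553. At 28 dpn the values were 255, 390 and 690 in the same order. At 188 dpn they were 16.2, 126 and 654. Every newborn and every weaned piglet was thus above its array median, but only 9 of 16 young adults were. The mean log2 intensity was 5.01 ± 1.30 at 94 dpc (SD, n = 16), 10.61 ± 0.61 at 1 dpn (n = 14), 8.65 ± 0.43 at 28 dpn (n = 15) and 6.88 ± 1.5 at 188 dpn (n = 16).

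**Figure D1:**
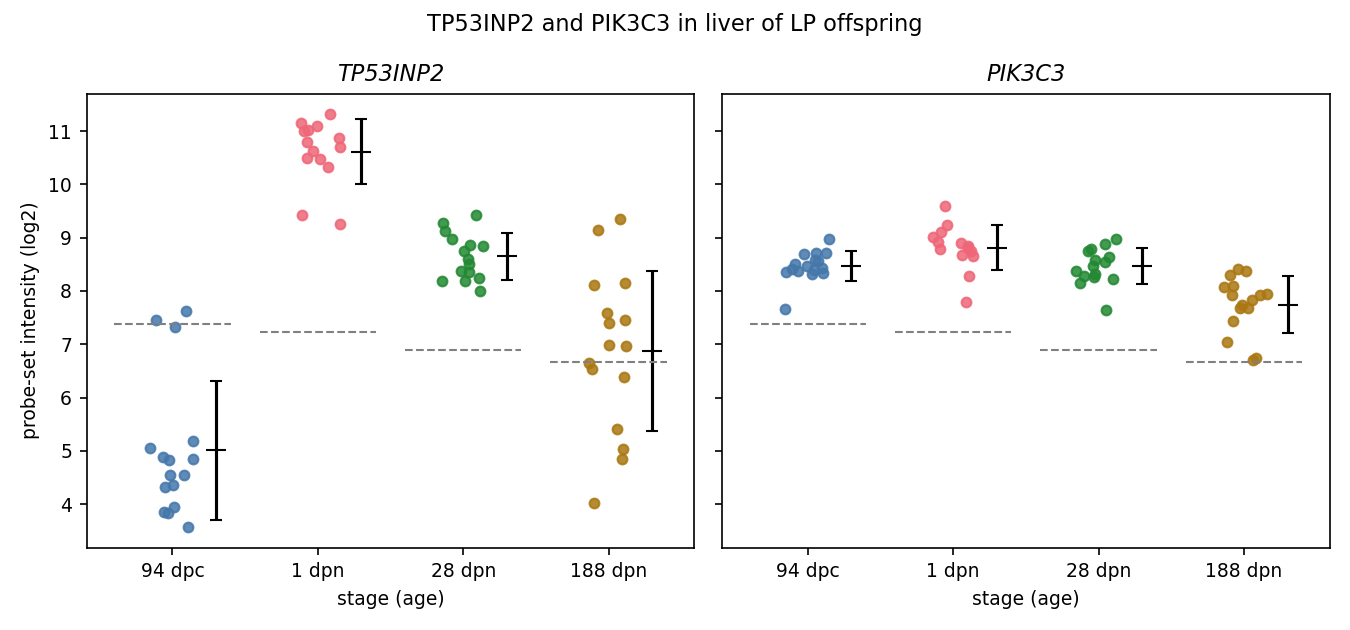
Log2 probe-set intensity of TP53INP2 (left) and PIK3C3 (right) at the 4 stages in age order. Each point is 1 animal (16, 14, 15 and 16 animals), black bars are mean ± SD, and dashed lines are the stage's median of array medians. TP53INP2 at 1 dpn lay above all values at 94 dpc, and its young adults covered 5.34 log2 units, whereas the PIK3C3 values of neighbouring stages overlapped.

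In the first period every newborn was above every fetus, although the share of all probe-sets separated in this way was not counted. The difference was 5.60 on the log2 scale (SE 0.37, a 48.5-fold ratio of geometric means), and 9 of the 13915 probe-sets that exceeded the array median in 50% or more of the animals of some stage differed by more in the same direction. The fetal values were mostly below the array median, where intensities carry little information on level. With every value below its array median set to that median, the difference was 3.21, a 9.26-fold ratio. In the second period TP53INP2 was lower by 3.90-fold at 28 dpn, with a difference of -1.96 (SE 0.19). Only 2 of 15 weaned piglets reached the range of the newborns. In the third period the difference was -1.77 (SE 0.39), and 12 of 16 young adults lay below every weaned piglet, while the other 4 fell within their range. With the array median as floor this difference was -1.24.

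The order of the stages for TP53INP2 was thus 1 dpn, 28 dpn, 188 dpn and 94 dpc. The neighbours 188 dpn and 94 dpc overlapped, with 12 of 16 young adults inside the fetal range and 4 above it, and differed by 1.87 in the mean. The young adult with the most TP53INP2 was the only one inside the range of the newborns.

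The spread of TP53INP2 between animals was wide at 2 stages, beside probe-sets of similar mean intensity. At 188 dpn the SD of 1.5 exceeded that of 99.7% of the 3101 probe-sets whose mean at that stage was within 0.5 log2 units of its own, and their median SD was 0.56. The values covered 5.34 log2 units, with 2 young adults at 564 and 654 and the other 14 between 16.2 and 284. Only 9 of 16 young adults exceeded their array median, so the lower part of this spread rests on dim values. Over 28 dpn and 188 dpn together the residual SD was 1.12. It was 0.70 when dim values were raised to their array median, and 0.98 when outlying arrays were dropped. The place among similar probe-sets was not computed for these alternatives. At 1 dpn its SD of 0.61 exceeded that of 92.8% of 1340 such probe-sets, with 2 newborns at 610 and 687 and the other 12 between 1290 and 2553. At 94 dpc its SD of 1.30 was ordinary for a probe-set of such low intensity, at the 52.0th percentile of 2777. There 3 fetuses stood apart at 160, 175 and 198, against 11.8 to 36.1 in the other 13, a gap of 2.14 log2 units.

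The PIK3C3 probe-set was above the array median in every animal at every stage, and its differences were smaller. The lowest, median and highest intensities were 203, 350.1 and 501 at 94 dpc. At 1 dpn they were 222, 454 and 769. At 28 dpn they were 199.995, 355 and 504, and at 188 dpn 104, 235 and 343. The mean log2 intensity was 8.47 ± 0.28, 8.81 ± 0.42, 8.46 ± 0.34 and 7.74 ± 0.53 in age order (SD, n = 16, 14, 15 and 16). No pair of stages was free of overlap. The order of the stages with the deposited scaling was 1 dpn, 94 dpc, 28 dpn and 188 dpn. There 94 dpc and 28 dpn differed by 0.01 in the mean. This order depended on the scaling. With array medians subtracted the means were 1.09 at 94 dpc, 1.577 at 1 dpn and 1.574 at 28 dpn. On that scale 28 dpn lay above 94 dpc and close to 1 dpn. After quantile normalization 28 dpn also lay above 94 dpc, with differences of 0.54 in the first period and -0.20 in the second. The lowest mean stayed at 188 dpn under both other scalings.

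The difference in PIK3C3 was 0.34 in the first period (SE 0.13, 1.27-fold), with 4 of 14 newborns above every fetus. In the second period it was -0.35 (SE 0.14), and 14 of 15 weaned piglets lay within the newborn range. This second difference depended on the scaling, as it was -0.20 after quantile normalization and -0.0026 with array medians subtracted. In the third period it was -0.72 (SE 0.16, 1.64-fold lower), with 4 of 16 young adults below every weaned piglet and 12 within their range. That difference was -0.51 after quantile normalization, -0.56 with array medians subtracted and -0.54 when the 9 outlying arrays were left out. At 188 dpn PIK3C3 correlated across the 16 animals with the array median (Pearson's r = 0.67, permutation p = 0.0047; Spearman's rho = 0.65, permutation p = 0.0077) and with the 3' to 5' difference of beta-actin (r = -0.65, permutation p = 0.0058; rho = -0.44, permutation p = 0.094). After Benjamini-Hochberg adjustment over 28 relations both Pearson p-values were 0.0816, and those of rho were 0.216 and 0.783. Without the 2 animals farthest from the median of the x measure, r was 0.59 and -0.50. Without the 4 outlying arrays of this stage, r with the beta-actin difference was -0.17 (permutation p = 0.598; rho = 0, permutation p = 1; n = 12), and r with the array median was 0.68. With array medians subtracted, r with the beta-actin difference was -0.73 (permutation p = 0.0011) and its adjusted p was 0.0297, while rho was -0.47 (adjusted p = 0.665).

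No correlation between the 2 genes within a stage passed an adjusted p of 0.05. At 28 dpn the correlation was negative (r = -0.56, permutation p = 0.027; rho = -0.57, permutation p = 0.027; n = 15). It was -0.75 without the 2 animals farthest in TP53INP2, but the adjusted p over the 28 relations was 0.255 for r and 0.385 for rho. After quantile normalization r at 28 dpn was -0.47 (permutation p = 0.073), and with array medians subtracted -0.53 (permutation p = 0.038). Without the outlying arrays it was -0.52 (permutation p = 0.063, n = 13). At 1 dpn r was -0.30 (permutation p = 0.29, adjusted p = 0.73; rho = -0.20, permutation p = 0.50; n = 14), and -0.10 without the 2 farthest animals. At 188 dpn r was 0.41 (permutation p = 0.11, adjusted p = 0.56; rho = 0.19, permutation p = 0.49; n = 16), and 0.20 without the 2 farthest animals. At 94 dpc the 3 fetuses with high TP53INP2 stood apart, and among the other 13 r was -0.02 (permutation p = 0.95; rho = -0.16, permutation p = 0.59). Among the 24 relations of either gene with the array median, the beta-actin 3' to 5' difference or the erythroid markers, the lowest adjusted p was 0.0816 with the deposited scaling, that of PIK3C3 at 188 dpn given above, and 0.0297 with array medians subtracted. TP53INP2 gave r between -0.18 and 0.33 with the erythroid marker mean over the 4 stages.

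**Figure D2:**
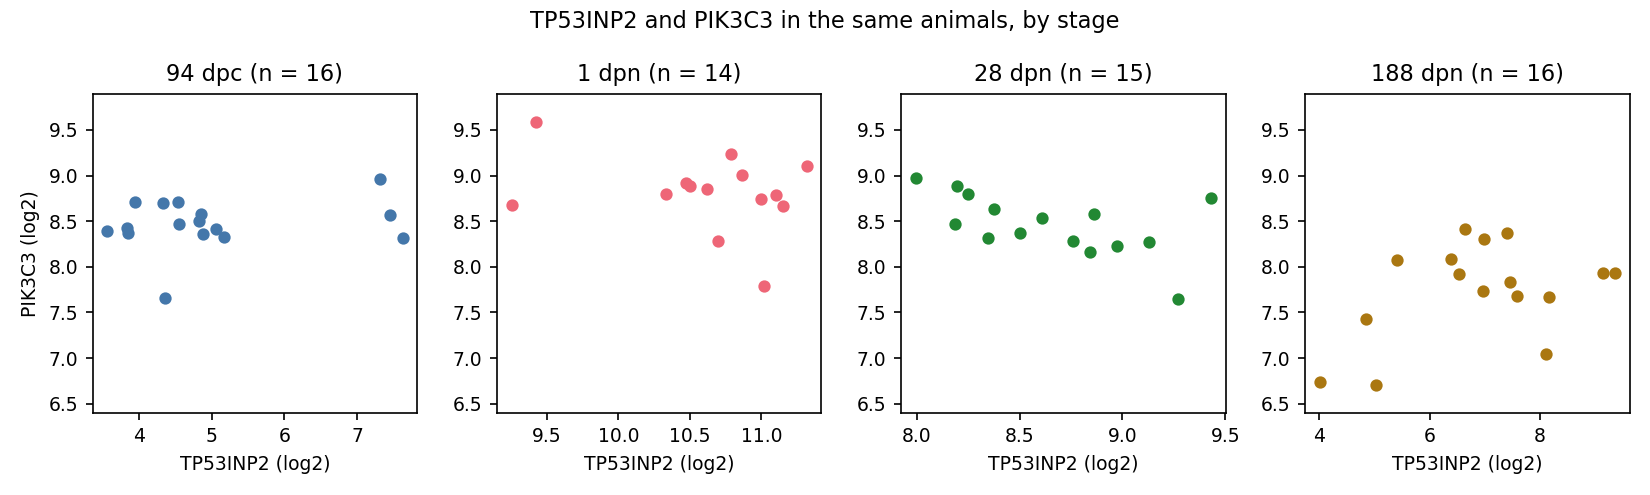
Log2 intensity of PIK3C3 (y axis, common to the panels) against TP53INP2 (x axis, which differs) in the same animals, 1 panel per stage in age order. Each point is 1 animal. The points run downward at 28 dpn (r = -0.56) and show no common direction over the stages.

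The measured partners of PIK3C3 in its complex were BECN1, its regulatory subunit, and NRBF2, a subunit of the autophagy-specific complex, out of 7 listed. Their levels did not take part in the choice of the members. NRBF2 had lowest, median and highest intensities of 228, 332 and 498 at 1 dpn and of 161, 231 and 347 at 94 dpc, which overlap. It was higher at 1 dpn by 0.50 (SE 0.12, limma q = 1.3e-04), lower at 28 dpn than at 1 dpn by a difference of -0.26 (SE 0.12, q = 0.0098) and lower at 188 dpn than at 28 dpn by a difference of -0.36 (SE 0.13, q = 0.0065). The call in the second period was lost after quantile normalization (-0.070), with array medians subtracted, where the sign turned (0.084), with Benjamini-Hochberg adjustment and without the outlying arrays. The call in the third period was lost under both other scalings (-0.17 and -0.20).

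BECN1 had intensities of 554 to 821 at 28 dpn, with a median of 634, against 755 to 1134 at 1 dpn, with a median of 877. It was lower at 28 dpn by a difference of -0.45 (SE 0.08, q = 1.2e-06). At 188 dpn its range was 404 to 614 with a median of 503, a difference of -0.38 (SE 0.07) from 28 dpn. BECN1 varied too little to pass the filter on SD in the first period and in the third period, and in the second with array medians subtracted (-0.11), and was not tested there. Without that filter it was also called lower in the third period. Over all 61 arrays r with PIK3C3 was 0.65 for BECN1 and 0.57 for NRBF2, and with stage means subtracted 0.32 and 0.38. These r are descriptions over arrays that share stage, scaling and RNA quality.

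**Figure D3:**
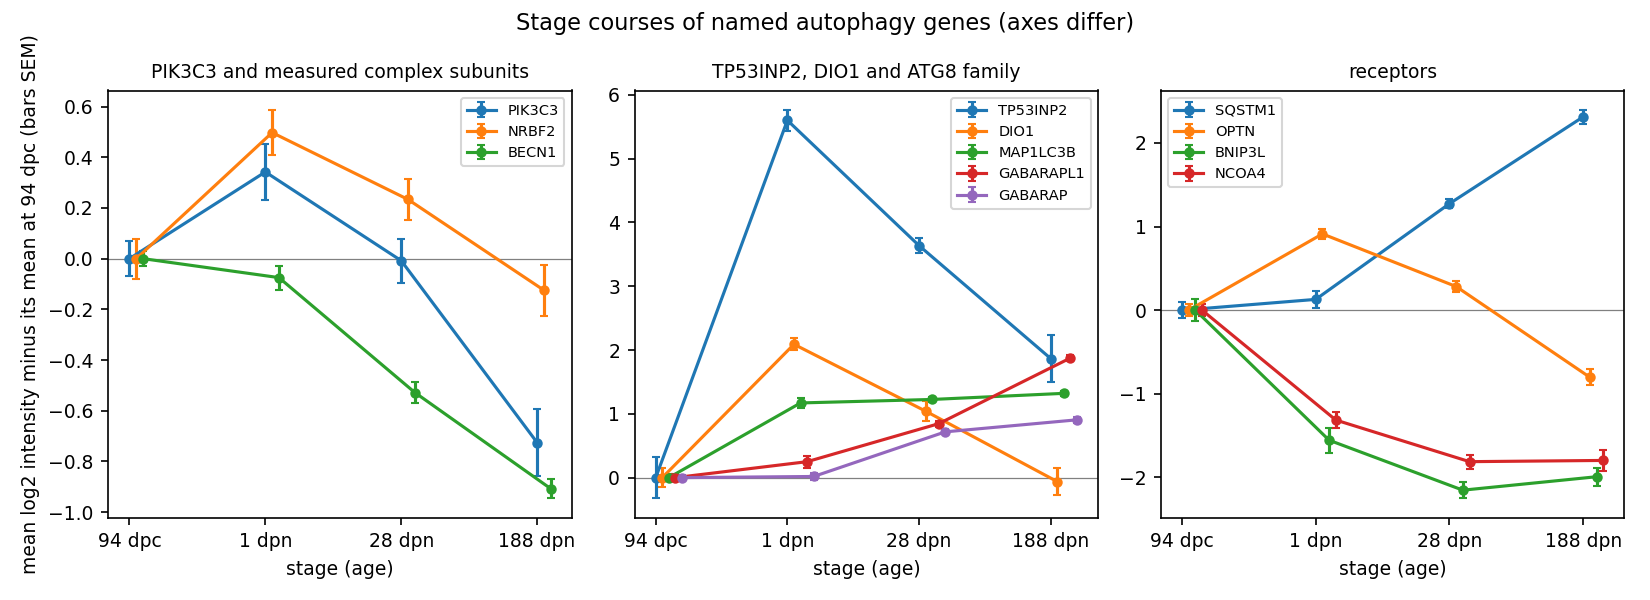
Mean log2 intensity minus the gene's own mean at 94 dpc, at the 4 stages in age order, with SEM bars (16, 14, 15 and 16 animals). The y axes differ. PIK3C3 and NRBF2 were both highest at 1 dpn, TP53INP2 and DIO1 shared a peak at 1 dpn, and SQSTM1 was higher at each of the last 2 stages than at the stage before.

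The autophagy machinery without TP53INP2 and PIK3C3 comprised 29 measured genes, grouped as the ULK complex, the class III kinase complex, membrane supply, conjugation, ATG8 family and cargo receptors. A gene was called at an unadjusted limma p and a Storey q of at most 0.05. Neighbouring periods share the animals of 1 stage, so their calls are not independent. In the first period 24 genes passed the filters, of which 8 were called higher and 13 lower at 1 dpn, with a median difference of -0.36 beside -0.16 over all 12227 probe-sets tested. Over all probe-sets 26.1% were called higher and 41.6% lower. In the second period 11 of 27 were higher and 13 lower at 28 dpn, with a median of -0.25 beside -0.14, against 29% higher and 41.4% lower among all 12114 tested. In the third period 8 of 24 were higher and 7 lower at 188 dpn, with a median of 0.02 beside -0.14, against 18.3% higher and 35.7% lower among all 10959. These splits moved with the scaling. With array medians subtracted, which moved the median of all probe-sets tested to 0.02, 0.27 and 0.07, the counts were 10 higher and 10 lower, 15 and 1, and 13 and 4. After quantile normalization they were 8 and 12, 12 and 7, and 10 and 5.

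**Figure D4:**
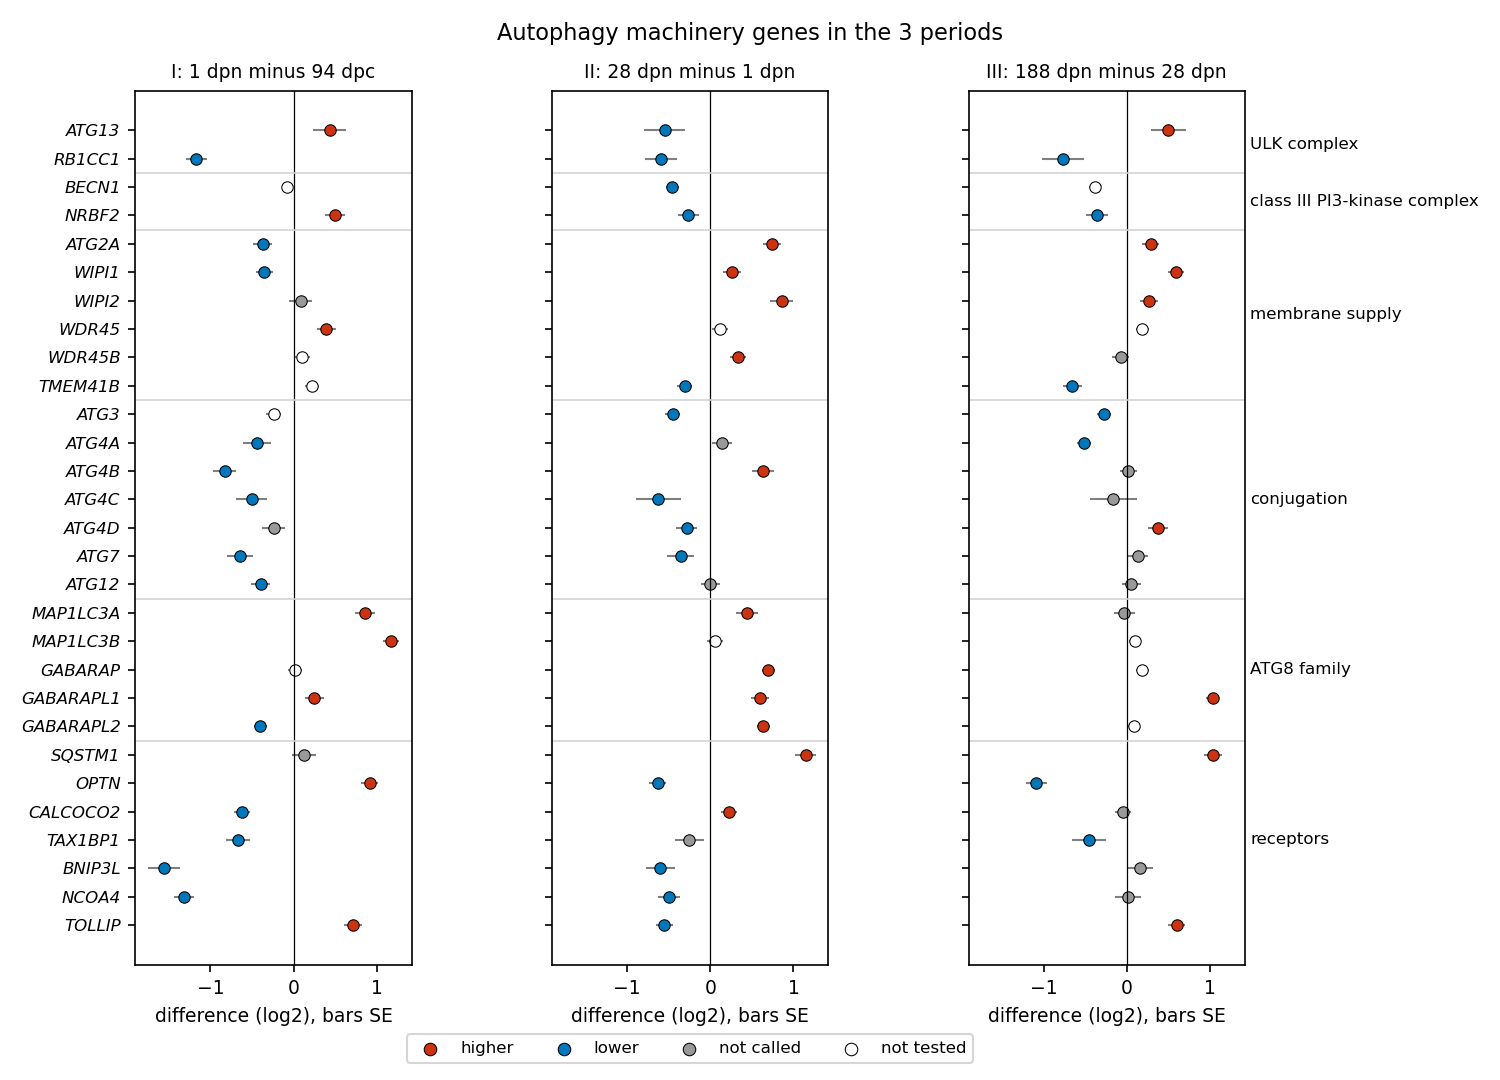
Differences in mean log2 intensity (x axis, later minus earlier stage, bars SE) of the 29 measured autophagy machinery genes in the 3 periods. Red and blue points were called higher or lower by limma, grey points were tested and not called, white points did not pass the filters. In the first period all 7 conjugation genes lay left of 0, and MAP1LC3B and MAP1LC3A right of it.

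The ATG8 proteins are the partners that TP53INP2 binds, and they are attached to the autophagosome membrane, where they hold cargo receptors. In the first period 3 of 4 tested members were called higher and 1 lower, where 26.1% and 41.6% of all probe-sets tested were. MAP1LC3B, which encodes the LC3 protein used most as a marker of autophagosomes, had intensities of 2440 to 5376 at 1 dpn, with a median of 3941, against 1309 to 2237 at 94 dpc, with a median of 1687. The groups did not overlap and the difference was 1.17 (SE 0.10, q = 1.1e-12). Absence of overlap, for this gene and those below, is a description only. Its frequency among all probe-sets tested was not counted. MAP1LC3A was higher by 0.85 (SE 0.12, q = 3.7e-08). GABARAPL1 was higher by 0.25, a call lost after quantile normalization, and GABARAPL2 was lower by a difference of -0.40. After the first period MAP1LC3B did not pass the filter on SD, with differences of 0.05 and 0.10.

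In the second period all 4 tested ATG8 members were called higher at 28 dpn, namely GABARAP by 0.70, GABARAPL2 by 0.64, GABARAPL1 by 0.60 and MAP1LC3A by 0.44, where 29% of all probe-sets tested were higher. In the third period GABARAPL1 had intensities of 5110 to 9165 at 188 dpn, against 2707 to 4344 at 28 dpn. The ranges did not overlap and the difference was 1.03 (SE 0.08, q = 3.8e-12). GABARAPL1 was thus highest at 188 dpn, where most TP53INP2 values were below those at 28 dpn. With stage means subtracted, r with TP53INP2 over the 61 arrays lay between -0.04 and 0.20 for the 5 members.

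Of the 7 conjugation enzymes, which attach ATG8 proteins to lipid or prepare them for it, 5 of 6 tested were called lower at 1 dpn and none higher, where 41.6% of all probe-sets tested were lower. ATG4B, a protease that trims and recycles ATG8 proteins, differed by -0.83 (SE 0.14, q = 8.7e-07), ATG7, the activating enzyme, by -0.65 and ATG4C by -0.50. The ranges of these enzymes at 1 dpn and 94 dpc overlapped. The call of ATG4C was lost under both other scalings. At 28 dpn ATG4B was higher by 0.63 (SE 0.13, q = 1.5e-05), and 4 of 7 conjugation genes were lower, where 41.4% of all probe-sets tested were lower. Among them were ATG4C at -0.63, ATG3 at -0.45 and ATG7 at -0.36, and none of these 3 was called lower with array medians subtracted. At 188 dpn ATG4D was higher by 0.38 and ATG4A and ATG3 were lower, at -0.51 and -0.27. With probe-sets averaged ATG3 turned to 0.10, the call of ATG4D was lost (0.23) and ATG4A was not tested. ATG3 did not pass the filters under both other scalings.

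RB1CC1, a scaffold of the ULK complex that starts autophagy, was lower in all 3 periods, by differences of -1.17 (SE 0.13, q = 2.3e-10), -0.59 and -0.77. The call in the second period was lost with array medians subtracted, and both this call and that of the third period with its probe-sets averaged. ATG13, another subunit, was higher at 1 dpn by 0.43, lower at 28 dpn at -0.55 and higher at 188 dpn by 0.50. Its call in the second period was lost under both other scalings and without the outlying arrays, and that in the first with Benjamini-Hochberg adjustment. Among the genes of membrane supply, WIPI1 and WIPI2 encode proteins that read the lipid made by PIK3C3, and ATG2A a lipid transfer protein that they recruit. At 1 dpn WDR45, another reader of that lipid, was higher by 0.39 and ATG2A and WIPI1 were lower at -0.37 and -0.35, the call of WIPI1 being lost with array medians subtracted. At 28 dpn WIPI2 was higher by 0.86 (SE 0.14), ATG2A by 0.75 (SE 0.11) and WDR45B by 0.34, and TMEM41B, a scramblase, was lower at -0.31. TMEM41B did not pass the filters after quantile normalization (-0.22), without the outlying arrays (-0.28) or with array medians subtracted, where its sign turned (0.039). WDR45B turned to -0.20 with its probe-sets averaged. At 188 dpn WIPI1 was higher by 0.59 (SE 0.10) and TMEM41B lower at -0.65 (SE 0.11).

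The cargo receptors went different ways. SQSTM1, or p62, which carries ubiquitinated proteins to the autophagosome, had a median intensity of 3963 at 28 dpn against 1632 at 1 dpn, and was higher by 1.15 (SE 0.12, q = 1.9e-10). At 188 dpn it had intensities of 5005 to 12660, against 2952 to 4984 at 28 dpn, and was higher again by 1.04 (SE 0.11, q = 9.4e-10). OPTN, a receptor for mitochondria and bacteria, was higher at 1 dpn by 0.91 (SE 0.10, q = 8.5e-10) without overlap. It was then lower at 28 dpn at -0.63 and lower at 188 dpn at -1.09 (SE 0.12, q = 4.9e-09), so that its order of stages began with 1 dpn as did those of TP53INP2 and PIK3C3. TOLLIP, an adaptor for ubiquitinated proteins, was higher at 1 dpn by 0.72, lower at 28 dpn at -0.55, a call lost with array medians subtracted, and higher at 188 dpn by 0.60.

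BNIP3L, which removes mitochondria from maturing red cells, was lower at 1 dpn at -1.56 (SE 0.19, q = 4.2e-09). NCOA4, the receptor for ferritin, was lower at -1.31 (SE 0.12, q = 7.4e-12), with intensities of 1658 to 3809 at 1 dpn against 4237 to 8924 at 94 dpc. TAX1BP1, another receptor for ubiquitinated proteins, was lower at -0.67 (SE 0.15, q = 3.4e-05). In the same period 5 of the 6 measured erythroid markers were called lower, where 41.6% of all probe-sets tested were. All 6 stood above the array median at 94 dpc and 5 of them at 1 dpn. The part of red cell precursors in these differences was not tested. BNIP3L and NCOA4 were lower again at 28 dpn, at -0.60 and -0.50, and both calls were lost with array medians subtracted.

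A further 49 measured genes acted on the PIK3C3 lipid, bound it, worked in fusion and the lysosome, regulated autophagy upstream, or belonged to thyroid hormone signalling. In the first period 12 of 38 tested were called higher and 13 lower at 1 dpn, in the second 13 of 39 higher and 14 lower at 28 dpn, and in the third 9 of 32 higher and 11 lower at 188 dpn. Over all probe-sets tested 26.1% were higher and 41.6% lower in the first period, 29% and 41.4% in the second, and 18.3% and 35.7% in the third. The median differences were -0.02, -0.07 and -0.08, beside -0.16, -0.14 and -0.14 over all probe-sets tested. With array medians subtracted the counts were 15 and 7, 25 and 6, and 16 and 6, and after quantile normalization 13 and 10, 17 and 11, and 11 and 7. MTMR3, a phosphatase that removes phosphate from the lipid made by PIK3C3, had intensities of 130.3 to 438 at 1 dpn against 567 to 930.1 at 94 dpc, a difference of -1.23 (SE 0.13, q = 7.3e-11) without overlap. MTMR14, another phosphatase of this kind, was higher at 1 dpn by 0.75 (SE 0.19). MTMR3 was higher at 28 dpn by 0.62 and MTMR14 lower at -0.53, and this call of MTMR14 was lost under both other scalings. FIG4, a phosphatase of the phosphoinositide that PIKFYVE makes from the PIK3C3 lipid, was lower at 28 dpn at -0.65 (SE 0.11). ZFYVE16, an endosomal protein that binds the same lipid, was lower at 1 dpn at -1.18 (SE 0.18) and at 188 dpn at -0.91 (SE 0.22).

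Of the genes of autophagosome fusion and the lysosome, 7 of 13 tested were higher at 28 dpn and 4 lower, where 29% and 41.4% of all probe-sets tested were. VAMP8, a SNARE protein of the lysosome, had intensities of 7272 to 10674 at 28 dpn against 2268 to 4412 at 1 dpn, a difference of 1.49 (SE 0.10, q = 6.3e-15). LAMP1, a major membrane protein of the lysosome, had a median of 12299 at 28 dpn against 6921 at 1 dpn, also without overlap (0.85, SE 0.07). VPS16 and VPS18, subunits of the tethering complexes HOPS and CORVET, were higher by 0.94 and 0.89. VPS39, a subunit of HOPS, was lower at -0.92, but at 0.077 with its probe-sets averaged. In the same period 4 of 6 measured macrophage markers and all 4 tested lymphocyte markers were called higher. The mean log2 intensity lay between 11.63 and 12.27 at 28 dpn against 10.41 and 11.45 at 1 dpn for macrophage markers, and between 6.05 and 8.59 against 3.57 and 6.14 for lymphocyte markers. Their part in these differences was not tested. TFEB, the transcription factor of lysosome and autophagy genes, was higher at 1 dpn by 1.51 (SE 0.31) and at 28 dpn by 0.63. None of 16 fetuses had TFEB above the array median, so in the first period it passed the filter through the newborns only. The size of the first difference rests on dim fetal values, and its lowest value under the alternatives was 0.29. YKT6, a SNARE protein, was higher at 1 dpn by 1.01 (SE 0.14) and lower at 28 dpn at -0.56, a call lost with array medians subtracted.

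Among the upstream regulators, RHEB, which activates the autophagy-repressing kinase mTOR, was higher at 1 dpn by 0.67 (SE 0.07, q = 3.0e-10) and lower at 28 dpn at -0.81 (SE 0.08, q = 3.9e-11), without overlap in either period. LAMTOR2, which anchors mTOR to the lysosome, and AKT1 were higher at 1 dpn by 0.88 and 0.70. PRKAA1, a catalytic subunit of the energy sensor AMPK, had intensities of 76.7 to 226 at 28 dpn against 270.1 to 481 at 1 dpn, a difference of -1.46 (SE 0.14, q = 3.2e-11). SESN1, a stress protein that restrains mTOR, was lower at 1 dpn at -0.80 and higher at 28 dpn by 0.47.

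TP53INP2 also assists thyroid hormone receptors. Of that list DIO1, the deiodinase that activates thyroxine in liver and a classical target of the receptor, also had its peak at 1 dpn. Its intensities were 1764 to 4447 at 1 dpn, with a median of 3548, against 345 to 1462 at 94 dpc, with a median of 769. The difference was 2.09 (SE 0.18, q = 1.2e-12), without overlap. DIO1 was lower at 28 dpn at -1.05 (SE 0.18, q = 1.2e-06) and at 188 dpn at -1.10 (SE 0.25, q = 1.3e-04). With stage means subtracted, r between DIO1 and TP53INP2 over the 61 arrays was 0.17. THRA, a thyroid hormone receptor, was lower at 1 dpn at -0.46 and higher at 28 dpn by 0.69, and THRB, the receptor form that prevails in liver, was lower at 188 dpn at -0.63. RXRA, the partner receptor, was lower at 1 dpn at -0.72, lower at 28 dpn at -1.01 and higher at 188 dpn by 0.61. With probe-sets averaged the calls of THRA in the first period and RXRA in the third were lost, RXRA in the first did not pass the filters (-0.11), and its second difference was -0.34. THRB was not tested with the array median as floor.

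The genes most like TP53INP2 were sought by Pearson's r over the 61 arrays among 13915 probe-sets. In this and the later rankings a symbol with several probe-sets was taken at the one with the most extreme r. The 5 symbols with the highest r over the stage pattern were GALT, of galactose breakdown (0.85), ACADVL, which starts mitochondrial oxidation of very long fatty acids (0.85), EDEM2, of the disposal of misfolded glycoproteins (0.84), FLAD1, which makes the cofactor FAD (0.84), and ETFDH, which passes electrons of fatty acid oxidation to the respiratory chain (0.83). The 3 lowest were ST13, a cochaperone (-0.81), FASN, the fatty acid synthase (-0.79), and NET1, a guanine nucleotide exchange factor (-0.79). GALT, ACADVL and FLAD1 stayed among the first 5 under both other scalings, and EDEM2 under neither. FASN was not among the 3 lowest under either. With array medians subtracted r was -0.62 for ST13, -0.68 for FASN and -0.69 for NET1, and other genes had the lowest values. The median r of the 29 machinery genes was -0.12 beside -0.04 over all probe-sets ranked, and 0.02 beside 0.04 with array medians subtracted. Arrays of 1 stage share age and experiment, so these r carry the stage means.

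With stage means subtracted, the highest r with TP53INP2 was that of CPT1A (0.65), the enzyme that admits long-chain fatty acids to mitochondrial oxidation. Spearman's rho was 0.60, and r was 0.59 without the 2 farthest animals and 0.60 without the outlying arrays. CPT1A remained first under both other scalings. Its r within the stages was 0.34, 0.83, 0.48 and 0.81 in age order. CPT1A was also weaker in the fetus, with median intensities of 929, 5998, 5241 and 5338 in age order. At 188 dpn it spread between 1023 and 10622, the widest range of the 4 stages, as it was for TP53INP2. The 2 young adults with the lowest TP53INP2 also had the lowest CPT1A, at 1023 and 1486. Their TP53INP2 values, 16.2 and 28.7, lay far below their array medians of 96.5 and 102.5, and the array of the former was 1 of the 9 outlying arrays.

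**Figure D5:**
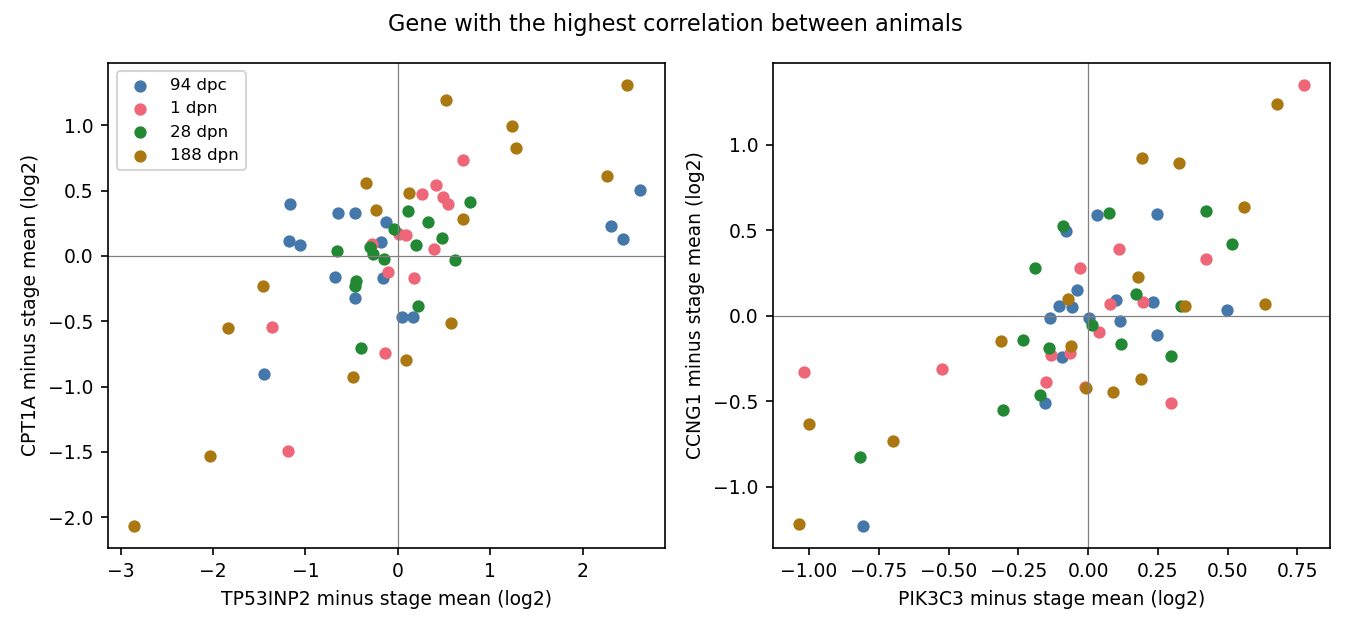
Log2 intensity minus the stage mean in each of the 61 animals, coloured by stage. Left, CPT1A against TP53INP2 (r = 0.65). Right, CCNG1 against PIK3C3 (r = 0.71). Both gene pairs were chosen as the highest r in their ranking, and the 188 dpn animals cover the widest range of TP53INP2.

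Next to CPT1A came VGLL4, a transcription cofactor (r = 0.57), GADD45A, a stress-induced growth arrest gene (0.51), PSEN2, a presenilin (0.50), and RHOU, a small GTPase (0.50). The same 5 symbols led under both other scalings. The lowest were TMEM70, of ATP synthase assembly (-0.49), NDN, an imprinted growth suppressor (-0.48), and CITED1, a transcription cofactor (-0.47). The autophagy machinery had a median r of 0.07 beside 0.02 over all probe-sets ranked, and 21 of its 29 genes had r above 0, where 56.5% of all probe-sets did. FASN, which had opposed TP53INP2 over the stages, had r within the stages of 0.02, -0.18, 0.17 and -0.67 in age order.

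For PIK3C3 the 5 symbols with the highest r over the stage pattern were NT5C2, a cytosolic nucleotidase (0.83), PLAA, a ubiquitin-binding protein (0.81), PPWD1, a nuclear prolyl isomerase (0.81), HSPA4, a chaperone (0.80), and YME1L1, a mitochondrial protease (0.80). The lowest were FMC1, an assembly factor of ATP synthase (-0.78), ATP6V0D1, a subunit of the proton pump of the lysosome (-0.77), and CST3, an inhibitor of cathepsins (-0.77). This ranking depended on the scaling. Only PPWD1 stayed among the first 5 after quantile normalization, and NT5C2 and PPWD1 stayed with array medians subtracted, where r was between -0.38 and -0.35 for FMC1, ATP6V0D1 and CST3 and other genes had the lowest values. The machinery had a median r of -0.18 beside 0.16 over all probe-sets ranked, and this contrast too depended on the scaling. After quantile normalization the medians were -0.0097 and 0.0012, and with array medians subtracted -0.018 and -0.012.

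With stage means subtracted, PIK3C3 was closest to CCNG1, a cyclin induced by p53 (r = 0.71), CALD1, an actin-binding protein (0.70), ERGIC2, of transport between endoplasmic reticulum and Golgi (0.69), YME1L1 (0.68) and SYNCRIP, an RNA-binding protein (0.67). For CCNG1 r within the stages was 0.67, 0.64, 0.66 and 0.78 in age order, and it remained first under both other scalings. With those 9 outlying arrays left out r was 0.58 for CCNG1, 0.50 for CALD1, 0.53 for ERGIC2, 0.50 for YME1L1 and 0.48 for SYNCRIP. The lowest r were those of PSMA7, a proteasome subunit (-0.62), COMTD1, a putative methyltransferase (-0.59), and MIEN1, a small membrane protein (-0.58). Without the outlying arrays they were -0.43, -0.46 and -0.38. Only PSMA7 stayed among the 3 lowest after quantile normalization, and none of them with array medians subtracted. For the 5 leading genes of TP53INP2 the values without these arrays were 0.60 for CPT1A, 0.54 for VGLL4, 0.42 for GADD45A, 0.46 for PSEN2 and 0.49 for RHOU. The machinery had a median r of -0.02 with PIK3C3 beside 0.04 over all probe-sets ranked.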

How the data were processed

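Linear globally scaled intensity values of 24123 probe-sets were deposited by the authors as a value table, with GCOS 1.1.1 named in the submitters' processing notes; the GC-RMA values of the study's methods were not used here. The members and gene lists were chosen with earlier results of these data known. Values were taken to log2. Symbols came from the platform annotation (10069 probe-sets with 1 symbol, 198 with several, 13732 with none, 124 controls), and the brightest probe-set stood for a gene in the lists. In the likeness rankings a symbol stood instead at its probe-set with the highest r, or with the lowest r at the lower end. Per period, probe-sets were kept that exceeded the array median in 50% or more of the animals of either stage and had an SD over 0.25, and limma took the later minus the earlier stage, with limma 3.58.1 in R 4.3.3. Calls needed p and Storey q of at most 0.05, where q can lie below p because most probe-sets changed. The fit was tested on simulated data. Pearson and Spearman correlations had two-sided permutation p-values from 100000 resamples (numpy in Python 3.11.15), adjusted over 28 relations.

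Named genes were both members, the measured partners of PIK3C3, in each other list and period up to 3 called higher and 3 called lower with the largest difference, and the 5 highest and 3 lowest r of each ranking. MAP1LC3A at 28 dpn, NCOA4 at 28 dpn, LAMP1 at 28 dpn and TFEB at 28 dpn, and genes named as not tested, were added after their values were seen. SD is the sample SD. Alternatives were quantile normalization, array medians subtracted, a pseudocount of 16, the array median as floor, other filters, adjustment and moderation, 1 fit over all stages, averaged probe-sets, and arrays of outlying 3' to 5' differences (over 3 scaled median absolute deviations) left out. No sequence or coordinate was used.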

Additional observations from a re-analysis of the deposited data

How the results depend on the processing

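Of the 36 alternative values of the member differences, 35 moved by less than 1 residual SD and kept their sign. The exception was TP53INP2 in the first period, at 3.21 with the array median as floor in place of 5.60, because most fetal values lay below that floor. Averaging probe-sets could not change either gene, since each had 1. The array median as floor could not change PIK3C3, which was above it in every animal, nor TP53INP2 in the second period. The PIK3C3 difference of the second period, -0.35, was -0.0026 with array medians subtracted, although this value is among the 35.

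The counts of called autophagy machinery genes moved by more than 1.5 times in these cases. In the second period 13 were lower, but 7 after quantile normalization and 1 with array medians subtracted. In the third period 8 were higher and 7 lower, but 13 and 4 with array medians subtracted, and 4 were lower with probe-sets averaged. For the 49 related genes, 13 were lower in the first period, but 7 with array medians subtracted and 7 with probe-sets averaged. In the second, 13 were higher and 14 lower, but 25 and 6 with array medians subtracted. In the third, 9 were higher and 11 lower, but 16 and 6 with array medians subtracted, and 7 were lower after quantile normalization. The other 108 alternative counts stayed within 1.5 times.

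The correlation of the members over all 16 fetuses was 0.22, and -0.22 with the array median as floor. Single genes that passed the filters changed sign in 5 cases, namely NRBF2 (0.084) and NCOA1 (0.0028) in the second period with array medians subtracted, and WDR45B (-0.20), VPS39 (0.077) in the second and ATG3 (0.10) in the third period with probe-sets averaged. Where filters were not passed, the sign also turned for TMEM41B in the second period (0.039 with array medians subtracted) and for BECN1 in the first, which was -0.075 and up to 0.13 with probe-sets averaged. A further 72 single calls were lost and 1052 kept. The ranking without outlying arrays was added after the data were seen. No paired analysis was possible because the labels number the animals through from 1 to 61, so that no number is shared between stages.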
